A study of Arabidopsis thaliana with 6 samples.

Results

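The vacuolar sorting receptors of Arabidopsis thaliana are described here as 9 genes, the receptors VSR1 to VSR7 and the RMR proteins RMR1 and RMR2. They were found by their locus identifiers among the 34484 identifiers of the deposited FPKM table, and all 9 had a row. The reference annotation names VSR1 to VSR7 and RMR1, while AT1G71980, listed as RMR2, is annotated there only as a protein with a protease-associated domain and a RING finger. The study sequenced total RNA of mature stems from plants mutated in γVPE, which encodes a vacuolar processing enzyme, and from wild type plants. There were 6 libraries, 3 per genotype by title, from stems labelled 42 days after flowering, of plants grown at 20 °C under a cycle of 16 h light and 8 h dark. The columns of the table are named WT_1 to WT_3 and WT_V_1 to WT_V_3. The first set matches the wild type titles. The second was taken as the mutant because it was the set left over, so the sets are called WT and WT_V here. The labels give no allele, no background line and no source plants, and the design text speaks of no replicates. Every p-value below therefore measures only the spread between libraries, which may be technical.

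Soluble proteins bound for the plant vacuole are sorted away from secretion by receptors that bind short signals in the cargo. VSR proteins cross the membrane once, bind cargo on the lumenal side, travel from the Golgi and trans-Golgi network to the prevacuolar compartment and are thought to be recycled with the help of the retromer coat. In Arabidopsis seeds VSR1, helped by VSR3 and VSR4, is needed to bring globulins and albumins to the storage vacuole, and loss of VSR1 leads to their secretion. RMR proteins share the protease-associated domain with VSRs, carry a RING finger, and have been linked to sorting into storage vacuoles. Vacuolar processing enzymes such as γVPE are themselves made as precursors that are delivered to the vacuole.

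The WT_V and WT libraries differed across the whole transcriptome, and the receptors have to be read against that. γVPE itself was 325 to 328 FPKM in the WT_V libraries and 163 to 164 FPKM in the WT libraries, so the transcript was not lower in the set taken as the mutant. Library totals worked out from the smallest FPKM steps were 40308000 to 51013000, at which 1 count in a gene of 1 kb is worth 0.0196 to 0.0248 FPKM. Of 19144 genes tested with limma on log2(FPKM + 1), 14550 passed an adjusted p of 0.05 (76%), 9931 of them upward and 4619 downward. Over these genes the median log2 difference was 0.17 for the FPKM as deposited, -0.01 after median-of-ratios scaling, -0.09 after quantile normalization and 0.24 with each library rescaled to a constant FPKM total. The split of calls became 6775 higher (35.5%) and 7222 lower (37.9%) under median-of-ratios scaling, and 5643 higher (29.5%) and 8572 lower (44.8%) under quantile normalization. Seed markers were found almost wholly in one set. The summed level of 8 seed markers was 13189 to 13428 FPKM in WT_V and 0 to 0.0353 FPKM in WT, where 7 of the 8 were listed at 0 in every library. The 9 flower and pollen markers summed to 129 to 133 FPKM in WT_V against 28.1 to 31.3 FPKM in WT, and the 7 of them that were tested were all called higher. Of these, AG and VGD1 averaged the 1 FPKM needed for the test only through their level in WT_V. MS1, a regulator of the anther tapetum, was listed at 0 in all WT libraries and was at most 0.0962 FPKM in WT_V. The 6 markers of stem xylem and fibres, such as CESA4, were present in both sets, at 120 to 125 FPKM in WT_V and 41.8 to 42.4 FPKM in WT. The part of these organs in the receptor values was not tested. In bulk RNA, more cells of a type and more RNA per cell cannot be told apart.

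Among the receptors, VSR6 rose to 7.15 times and VSR1 to 1.31 times its WT level in WT_V, RMR2 fell to 85% of it, VSR7 passed the test narrowly, and VSR3, VSR4 and RMR1 did not pass the test. VSR2 and VSR5 were almost undetected in both sets. Of the 9 genes, 7 averaged 1 FPKM or more over the 6 libraries and were tested. limma called 3 of them higher and 1 lower at an adjusted p of 0.05, where 51.9% of all tested genes were called higher and 24.1% lower. The share of receptors called, 4 of 7, is thus not above that of the table as a whole. VSR6 passed the filter only through its level in WT_V, and the other 6 tested receptors were above 1 FPKM in each set. The median log2 difference of the 7 was 0.04, against 0.17 for all tested genes.

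**Figure D1:**
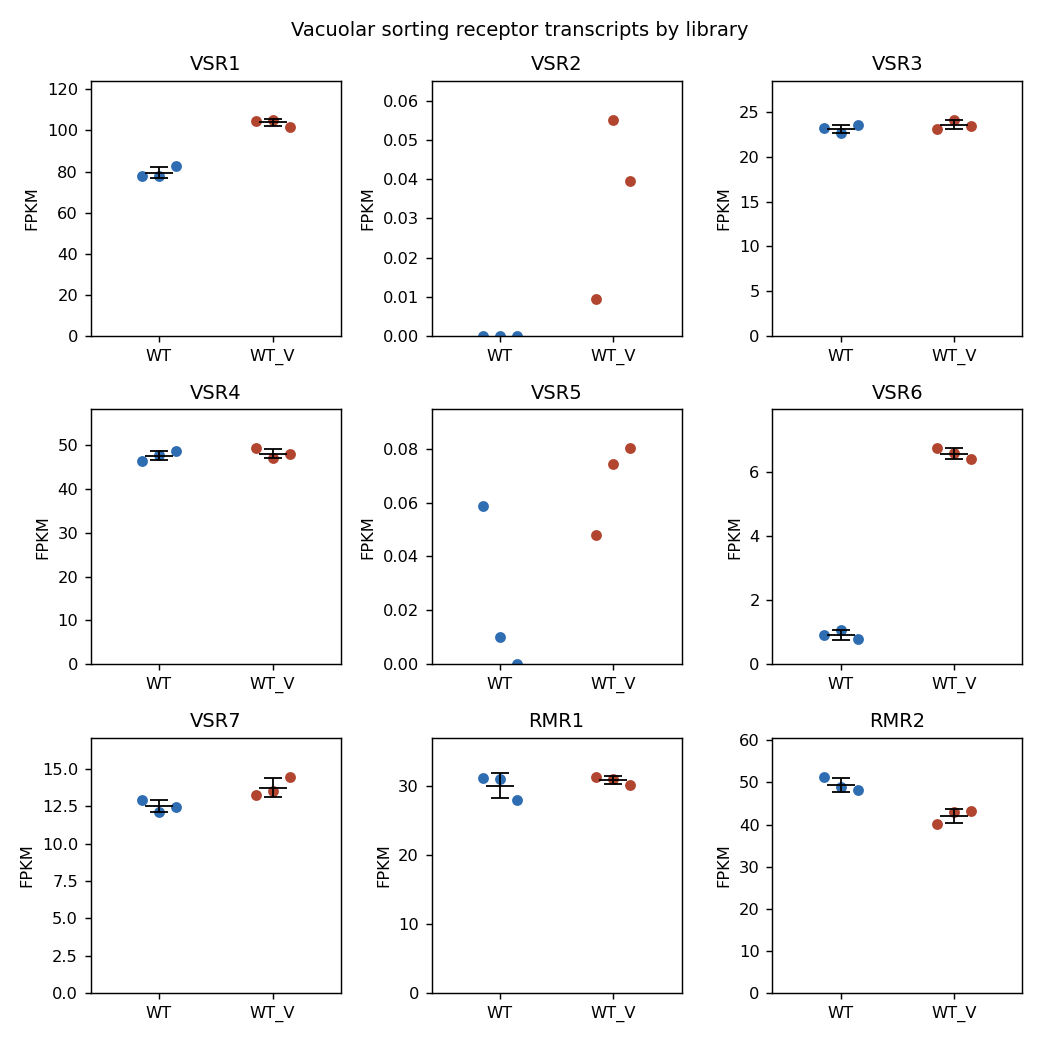
FPKM of each receptor (y axis, linear from 0, scale set per gene) in the 3 WT and 3 WT_V libraries (points), with the mean and SD where no library is at 0. Among the tested receptors the sets stand apart for VSR1, VSR6, VSR7 and RMR2, as for 77.6% of all tested genes, while VSR3, VSR4 and RMR1 overlap. The untested VSR2 and VSR5 stay below 0.081 FPKM. VSR2 is at 0 in every WT library and above 0 in every WT_V library, and the sets of VSR5 overlap.

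VSR1 (AT3G52850) was the most abundant receptor in every library. It stood at 104.8, 105.1 and 101.8 FPKM in WT_V_1 to WT_V_3 and at 78.0, 77.6 and 82.5 FPKM in WT_1 to WT_3. Every WT_V library was above every WT library. The WT_V mean was 104 ± 1.85 FPKM and the WT mean 79.4 ± 2.70 FPKM (SD, n = 3), a ratio of 1.31. The log2 difference was 0.38 ± 0.029 (SE; limma, adjusted p = 5.04e-07), and 68% of all tested genes had a lower one. The increase held under each of the 15 alternative settings, at log2 differences from 0.19 with median-of-ratios scaling to 0.45 with quantile normalization. AT3G52860 on the opposite strand shares 100 of the exon bases of VSR1 (4.22%), and the strand setting of the counts is not given. That gene was 13.0 ± 0.821 FPKM in WT_V and 13.0 ± 0.438 FPKM in WT (SD, n = 3), and it did not pass the test.

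VSR2 (AT2G30290), with a coding sequence identical to that of VSR1 at 70.8% of aligned bases, was at the edge of detection. Its values were 0.0095, 0.0551 and 0.0395 FPKM in WT_V, and it was listed at 0 in all 3 WT libraries. Taken as multiples of the smallest step, the WT_V values amount to 11 counts in all (exact Poisson 95% interval 5.49 to 19.7). The 0 counts of the WT libraries together have an interval of up to 3.69 counts, so the intervals of the sets do not overlap. For a single library a count of 0 allows 0.0285 to 0.0328 FPKM, the worth of 3 counts, and WT_V_1 was below that. Intervals and limits of this kind cover counting error only, not the spread between libraries, and the pooled counts are not corrected for the larger WT_V totals. The gene was too low for the filter of the limma test. Without that filter VSR2 did not pass (limma, adjusted p = 0.0835).

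VSR3 (AT2G14740) and VSR4 (AT2G14720) are near-identical neighbours that have been described as partners of VSR1 in seed protein sorting. VSR3 stood at 23.2, 24.1 and 23.5 FPKM in WT_V and at 23.3, 22.7 and 23.6 FPKM in WT. VSR4 stood at 49.2, 47.0 and 47.8 FPKM in WT_V and at 46.4, 47.7 and 48.5 FPKM in WT. The sets overlapped for both genes. The log2 difference was 0.02 for VSR3 (95% interval -0.06 to 0.11; limma, adjusted p = 0.563) and 0.01 for VSR4 (95% interval -0.06 to 0.08; limma, adjusted p = 0.702). These intervals exclude a difference as large as that of VSR1 on the deposited scale. They sit below the median of all tested genes, and with median-of-ratios scaling both genes were called lower, at log2 differences of -0.17 for VSR3 (limma, adjusted p = 0.0022) and -0.18 for VSR4 (limma, adjusted p = 0.000303). Of the pair, quantile normalization left VSR3 called lower (-0.11; limma, adjusted p = 0.019).

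The coding sequences of VSR3 and VSR4 in the reference were identical at 95.5% of aligned bases, and 364 of the 1838 windows of 50 bases in VSR4 (19.8%) also occurred in VSR3. How reads that match both genes were counted is not given in the sources used here, so the division between them is uncertain. Their summed FPKM depends on how such reads are divided only through the gene lengths, 2522 and 2566 exon bases in the reference. The sum would also change if such reads were dropped or counted for both genes. It was 72.3, 71.2 and 71.2 FPKM in WT_V and 69.6, 70.4 and 72.1 FPKM in WT, with overlapping sets. No window of 50 bases was shared by any other pair of the 9 coding sequences.

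VSR6 (AT1G30900) showed the greatest change of the family. It stood at 6.74, 6.59 and 6.40 FPKM in WT_V and at 0.918, 1.06 and 0.779 FPKM in WT. The lowest WT_V library was several times the highest WT library. The mean was 6.58 ± 0.170 FPKM against 0.921 ± 0.143 FPKM (SD, n = 3), a ratio of 7.15. These values correspond to 853, 863 and 779 counts in WT_V and 95, 127 and 82 counts in WT. On the log2(FPKM + 1) scale, which understates the change of a gene this low, the difference was 1.98 ± 0.085 (SE; limma, adjusted p = 4.91e-09). Of all tested genes, 4.11% were called higher with a log2 difference of 2 or more, and 797 (4.16%) with a difference at least as large as that of VSR6. The call held under the 14 alternatives that kept the gene, at log2 differences from 0.97 with a pseudocount of 5 to 2.72 with a pseudocount of 0.1. A minimum mean of 5 FPKM removed it from the test.

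VSR5 (AT2G34940) is the closest relative of VSR6 in coding sequence, at 79.5% of aligned bases, yet its transcript was scarcely detected. It stood at 0.0481, 0.0744 and 0.0801 FPKM in WT_V, or 5, 8 and 8 counts. In WT it stood at 0.0588, 0.0102 and 0 FPKM, or 5, 1 and 0 counts. The sets overlapped. The totals were 21 counts (exact Poisson 95% interval 13.0 to 32.1) and 6 counts (2.202 to 13.1). Without a filter on low values, limma gave adjusted p = 0.138 for VSR5 and 0.0835 for VSR2.

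VSR7 (AT4G20110), the third receptor of the VSR5 and VSR6 branch (70.7% identity with VSR5, 71.4% with VSR6), differed little. It stood at 13.3, 13.6 and 14.5 FPKM in WT_V and at 13.0, 12.2 and 12.5 FPKM in WT. The sets did not overlap, as for 77.6% of all tested genes. The log2 difference was 0.13 ± 0.052 (SE; limma, adjusted p = 0.0465). The call was lost without a filter on low values (limma, adjusted p = 0.0649). It was also lost without WT_V replicate 2 (adjusted p = 0.0751), WT_V replicate 3 (0.167), WT replicate 2 (0.128) or WT replicate 3 (0.0867) by limma. The difference turned to -0.06 with median-of-ratios scaling (limma, adjusted p = 0.313) and to -0.12 with quantile normalization (limma, adjusted p = 0.055).

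Of the RMR genes, RMR2 fell and RMR1 did not pass the test. RMR1 (AT5G66160) stood at 31.3, 31.0 and 30.1 FPKM in WT_V and at 31.2, 31.1 and 27.9 FPKM in WT, with overlapping sets. Its log2 difference was 0.04 (95% interval -0.06 to 0.14; limma, adjusted p = 0.475), and it was called lower with median-of-ratios scaling (-0.16; limma, adjusted p = 0.00984). RMR2 (AT1G71980) stood at 40.1, 42.9 and 43.2 FPKM in WT_V and at 51.3, 48.9 and 48.2 FPKM in WT. Every WT_V library was below every WT library. The mean was 42.0 ± 1.72 FPKM against 49.5 ± 1.66 FPKM (SD, n = 3), or 85% of the WT level. The log2 difference was -0.23 ± 0.038 (SE; limma, adjusted p = 0.000257), and 17.7% of all tested genes had a lower one. RMR2 was called lower under each of the 15 alternatives, from -0.43 with median-of-ratios scaling to -0.18 with each library rescaled to a constant FPKM total.

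**Figure D2:**
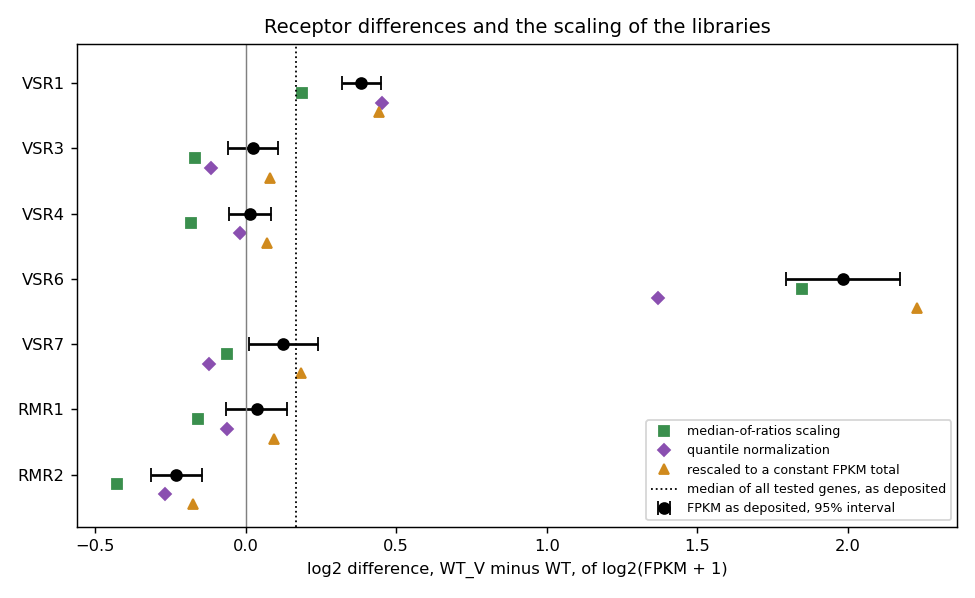
Log2 difference between WT_V and WT (x axis, on log2(FPKM + 1)) of the 7 tested receptors, with the 95% interval of limma (bars) and the value under 3 other scalings (coloured symbols); the dotted line is the median of all tested genes, 0.17. VSR1 and VSR6 stay above 0 and RMR2 stays below 0 under every scaling, and VSR3, VSR4, VSR7 and RMR1 change sign.

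FPKM is scaled by gene length, so levels can be set side by side. In WT_V the order was VSR1, VSR4, RMR2, RMR1, VSR3, VSR7, VSR6, VSR5 and VSR2. In WT it was VSR1, RMR2, VSR4, RMR1, VSR3, VSR7, VSR6, VSR5 and VSR2. RMR2 and VSR4 thus stood in the opposite order, but their ranges overlapped in WT (48.2 to 51.3 FPKM for RMR2 and 46.4 to 48.5 FPKM for VSR4). VSR5 and VSR2 overlapped in both sets. The ranges of all other neighbours in either order did not overlap.

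The summed level of VSR1 to VSR7 was 197, 197 and 194 FPKM in WT_V and 162, 161 and 168 FPKM in WT. The ratio of 1.20 holds for the deposited scale, on which tested genes as a whole also lay higher, by a median log2 of 0.17. Median-of-ratios scaling lowered the log2 difference of VSR1 from 0.38 to 0.19 and that of VSR4 from 0.01 to -0.18. For VSR1 it was 0.45 with quantile normalization and 0.44 with a constant FPKM total. The sum of VSR1 to VSR7 was not recomputed under these scalings. VSR1 supplied 53.0 ± 0.522% of this sum in WT_V and 48.5 ± 0.542% in WT (SD, n = 3). VSR6 supplied 3.36 ± 0.0595% against 0.564 ± 0.0982%. The shares of VSR3 and VSR4 were smaller in WT_V, at 12.04 ± 0.270% against 14.2 ± 0.202% and 24.5 ± 0.512% against 29.1 ± 0.462%. RMR1 and RMR2 together stood at 71.4, 73.9 and 73.3 FPKM in WT_V and at 82.5, 79.9 and 76.1 FPKM in WT.

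Ratios between receptors within a library do not depend on a scaling that multiplies the whole library by a single factor. Quantile normalization is not of that kind and can change them, and the ratios were not recomputed under it. The ratio of VSR1 to the sum of VSR3 and VSR4 was 1.45, 1.48 and 1.43 in WT_V and 1.12, 1.10 and 1.14 in WT. The ratio of VSR4 to VSR3 was 2.12, 1.95 and 2.03 in WT_V and 1.99, 2.10 and 2.06 in WT, with overlapping sets. RMR2 stood at 1.28, 1.38 and 1.43 times RMR1 in WT_V and at 1.65, 1.57 and 1.73 times RMR1 in WT. VSR7 exceeded VSR6 by a factor of 1.97, 2.06 and 2.26 in WT_V and of 14.1, 11.4 and 16.0 in WT. These ratios show that VSR1 and its partners, RMR1 and RMR2, and VSR6 and VSR7 changed unequally, and not which gene of each pair changed.

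**Figure D3:**
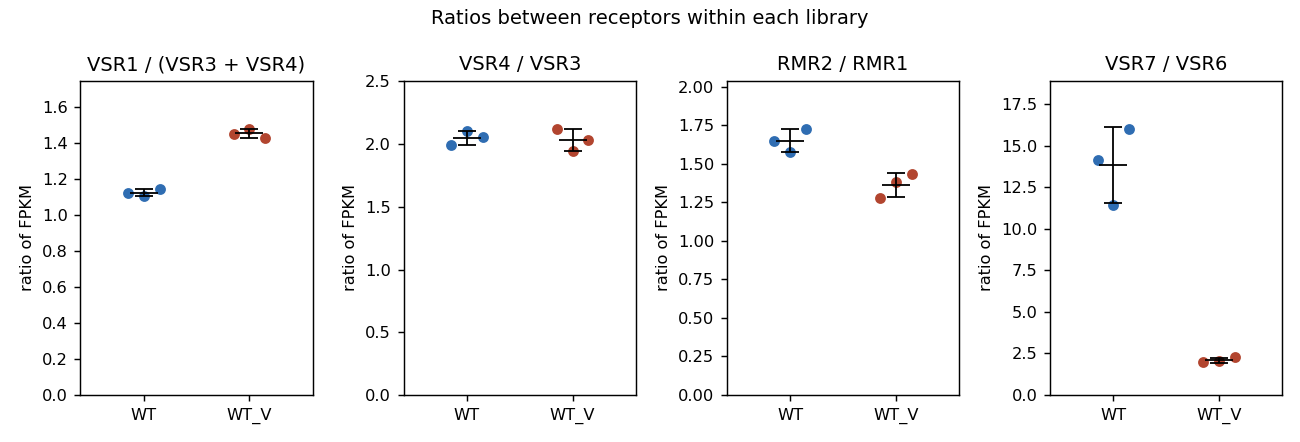
Ratio of FPKM between receptors within each library (y axis, linear from 0), in 3 WT and 3 WT_V libraries (points, with mean and SD). The sets stand apart for VSR1 to VSR3 plus VSR4, RMR2 to RMR1 and VSR7 to VSR6, and overlap for VSR4 to VSR3, which lies between 1.95 and 2.12.

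The profiles most like that of VSR1 over the 6 libraries, by the root mean square distance of centred log2(FPKM + 1) values among tested genes, were those of CAX2, AT5G62770 and AT3G44690, at distances of 0.0103, 0.0103 and 0.0109. CAX2, which encodes a vacuolar cation exchanger, stood at 16.9 ± 0.286 FPKM in WT_V and 12.7 ± 0.444 FPKM in WT (SD, n = 3). The profiles most like that of VSR6 were those of AT5G09300, AT1G62510 and AT2G17710, at distances of 0.0446, 0.0487 and 0.0506. With 2 sets of 3 libraries, this likeness rests mostly on the difference between the sets.

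Among the known cargo, the storage proteins differed far more than the receptors. All 9 storage proteins, the globulins and albumins sorted in seeds, were called higher in WT_V, beside 51.9% of all tested genes. Each of the 9 passed the filter only through its level in WT_V, so the filter set the direction of the call. All 9 were also called higher with median-of-ratios scaling (35.5% of all) and with quantile normalization (29.5% of all). Their summed level was 15414.5, 15678 and 15545 FPKM in WT_V and 0.240, 0.317 and 0.0862 FPKM in WT, and 7 of the 9 were listed at 0 in every WT library. CRC, SESA3, SESA4 and SESA2 averaged 3383, 3312, 2400 and 2359 FPKM in WT_V. For each FPKM of VSR1 the WT_V libraries held 147, 149 and 153 FPKM of storage protein transcripts. Of these 9 genes, 6 are also among the seed markers given above, and the part of seed tissue in their level was not tested.

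Proteins of the lytic vacuole had a median log2 difference of 0.04 on the deposited scale, like that of the receptors. Of 9 tested members, 5 were called higher and 1 lower, beside 51.9% and 24.1% of all tested genes. The counts became 3 higher and 6 lower with median-of-ratios scaling (35.5% and 37.9% of all). They were 8 higher and 1 lower with quantile normalization (29.5% and 44.8% of all). Quantile normalization also moved the lytic median to 0.36, while VSR3, VSR4, VSR7 and RMR1 lay below 0, so the likeness was lost. Under median-of-ratios scaling the lytic median was -0.16, and the same receptors lay below 0. Among the 5 called higher on the deposited scale was γVPE itself, at 327 ± 1.57 FPKM in WT_V against 163 ± 0.863 in WT (SD, n = 3). Its level is also part of the lytic cargo level given below. ALPHA-VPE, another vacuolar processing enzyme gene, measured 17.9 ± 0.854 FPKM in WT_V against 0.173 ± 0.0329 in WT (SD, n = 3). ALPHA-VPE passed the filter only through its level in WT_V. RD21A, a cysteine protease, measured 557 ± 8.02 against 351 ± 0.501 FPKM. AT1G62660, a glycosyl hydrolase of the invertase family, fell from 38.3 ± 0.982 to 25.8 ± 1.65 FPKM. The level of lytic cargo per FPKM of VSR1 to VSR7 was 15.7, 15.9 and 16.1 in WT_V and 16.3, 16.5 and 15.8 in WT, with overlapping sets.

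The machinery that carries and recycles the receptors is given by its counts beside those of all tested genes, of which 51.9% were called higher and 24.1% lower. Of the 9 retromer and sorting nexin genes, which serve receptor recycling, 6 were called higher and 0 lower by limma (0 lower at an unadjusted p under 0.05), at a median log2 difference of 0.35. The counts were 5 and 2 after median-of-ratios scaling (35.5% and 37.9% of all), and 4 and 1 after quantile normalization (29.5% and 44.8% of all). The core subunit gene VPS35A measured 24.6 ± 1.31 against 14.3 ± 0.325 FPKM and its copy VPS35B 32.7 ± 1.14 against 20.8 ± 0.309 FPKM (SD, n = 3). SNX2a measured 17.6 ± 0.662 against 13.3 ± 0.283 FPKM and VPS26B 14.1 ± 0.596 against 10.7 ± 0.670 FPKM, where the call of VPS26B was lost with quantile normalization (limma, adjusted p = 0.113).

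Coat genes, which select receptors into vesicles, were called higher in 11 of 15 cases and lower in 0 by limma, with 0 lower at an unadjusted p under 0.05 (median 0.24), beside 51.9% and 24.1% of all tested genes. Median-of-ratios scaling gave 7 higher and 3 lower (35.5% and 37.9% of all), quantile normalization 7 and 1 (29.5% and 44.8% of all). The clathrin heavy chain genes CHC2 and CHC1 measured 50.1 ± 0.911 against 31.7 ± 0.732 FPKM and 41.2 ± 0.301 against 29.6 ± 0.650 FPKM (SD, n = 3), and as close copies they may share reads. PAT2, the beta subunit of the AP-3 adaptor, measured 11.4 ± 0.391 against 7.52 ± 0.338 FPKM. The adaptin family gene AT1G31730 measured 23.1 ± 0.160 against 16.3 ± 0.790 FPKM.

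The SNAREs of the vacuolar route, which fuse vesicles with their target, went both ways. Of 16 tested members, 5 were called higher and 5 lower (median -0.03), beside 51.9% and 24.1% of all tested genes. The whole table moved downward under median-of-ratios scaling and quantile normalization, though not with a constant FPKM total, and SNARE counts did too. They were 3 higher and 11 lower with median-of-ratios scaling (35.5% and 37.9% of all) and 3 higher and 8 lower with quantile normalization (29.5% and 44.8% of all). SYP21, a syntaxin of the prevacuolar compartment, rose from 9.89 ± 0.200 to 17.6 ± 0.934 FPKM (SD, n = 3). Its relative SYP23 fell from 117 ± 3.35 to 79.6 ± 1.45 FPKM. VAMP711, a SNARE of the vacuole membrane, fell from 427 ± 12.2 to 290 ± 5.76 FPKM, and the trans-Golgi syntaxin gene SYP41 from 16.8 ± 0.743 to 11.96 ± 0.593 FPKM. VAMP712 was listed at 0 in all WT libraries and was not tested.

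Rab GTPases and their activators, which control the maturation of the prevacuolar compartment, were called higher in 9 of 13 cases and lower in 3 (median 0.18), beside 51.9% and 24.1% of all tested genes. With median-of-ratios scaling 3 were higher and 4 lower (35.5% and 37.9% of all), and the median was -0.02. Quantile normalization gave 9 higher and 3 lower (29.5% and 44.8% of all), with a median of 0.15. CCZ1B measured 14.0 ± 0.713 against 9.61 ± 0.335 FPKM and MON1 23.7 ± 0.689 against 17.3 ± 0.512 FPKM (SD, n = 3), and their products form the exchange factor of Rab7. The other CCZ1 gene, CCZ1A, was called lower, at 15.7 ± 0.714 against 17.7 ± 0.624 FPKM (limma, adjusted p = 0.0112). VPS9A, the activator of the Rab5 group, measured 15.0 ± 0.391 against 11.1 ± 0.385 FPKM. RABG3B, a Rab7 gene, fell from 18.2 ± 1.47 to 12.7 ± 0.606 FPKM.

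Tethering genes of the HOPS and CORVET complexes, which hold membranes together before fusion, were called higher in 5 of 7 cases and lower in 0 by limma, with 0 lower at an unadjusted p under 0.05 (median 0.28), beside 51.9% and 24.1% of all tested genes. Here median-of-ratios scaling gave 2 higher and 2 lower (35.5% and 37.9% of all), quantile normalization 2 and 1 (29.5% and 44.8% of all). AT1G12470 measured 14.5 ± 0.394 against 8.91 ± 0.167 FPKM and VCL1 18.1 ± 0.853 against 13.8 ± 0.746 FPKM (SD, n = 3). ATVPS33 measured 19.5 ± 1.42 against 15.9 ± 1.13 FPKM and AT1G22860 8.40 ± 0.115 against 6.76 ± 0.151 FPKM, and neither call was kept with median-of-ratios scaling (limma, adjusted p = 0.238 and 0.136).

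**Figure D4:**
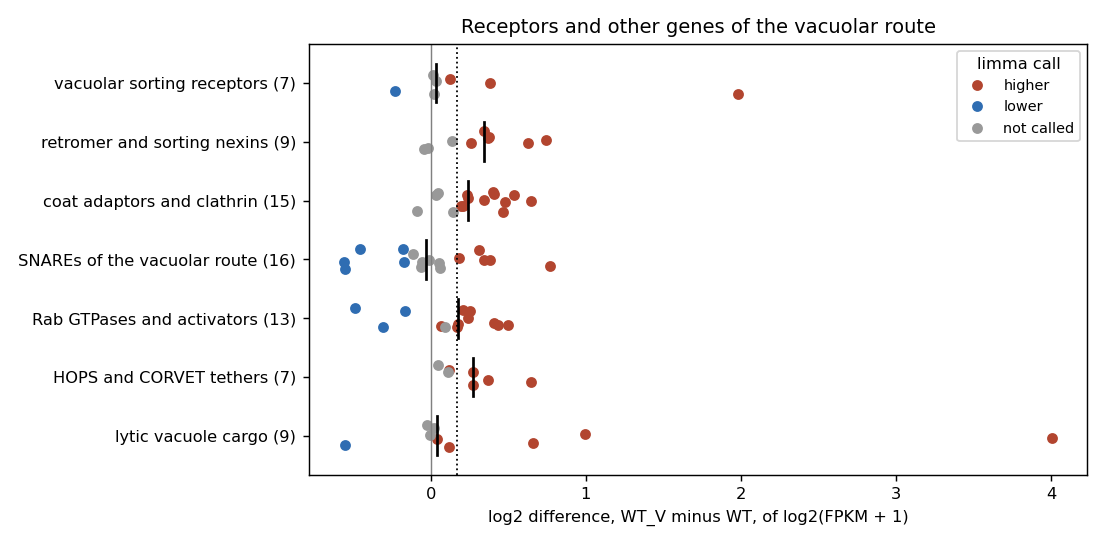
Log2 difference between WT_V and WT (x axis, on log2(FPKM + 1)) of each tested gene in 7 lists of the vacuolar route (number tested in brackets), coloured by the limma call, with the median of each list (black bar) and of all tested genes (dotted line, 0.17). The receptors have a median of 0.04, below that of the retromer list at 0.35 and the coat list at 0.24; storage proteins, all above 7, are not drawn.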

How the data were processed

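The authors deposited 1 table of FPKM, which are fragments scaled by gene length and library total, and per the submitters' processing notes Bowtie2 2.2.3, TopHat2 2.0.12 and HTSeq 0.6.1 were used. Build, annotation, strand setting and handling of shared reads: not given in the sources used here. Column names were matched to titles by genotype and number.

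Genes averaging 1 FPKM or more entered limma 3.58.1 (R 4.3.3, intensity trend) as log2(FPKM + 1), tested as WT_V minus WT, Benjamini-Hochberg adjusted over all 19144 tested genes. Ratios are of mean FPKM. In data simulated over 19144 genes, the test recovered 84 of 100 genes with a 1.5-fold change and 97 of 100 with a 2-fold change. Of 17379 unchanged genes, 9 were called. Only those changed genes differed there, up and down equally often, with a variance-to-mean ratio of 2.446 for every gene and no general shift between the sets. The real sets differed in most genes, so these shares are not the error rates of the real comparison. Changes smaller than 1.5-fold were not simulated.

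Counts were recovered with exon lengths of TAIR10.1. Among low genes with a single transcript, 99.2 to 99.39% came out whole within 0.02. Coding sequences were aligned with Biopython 1.88.

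The members and lists were chosen with earlier results of these data known. Named beside the 9 members were the 4 called genes of each list with the largest difference and no overlap, and the 3 nearest profiles of VSR1 and VSR6. AT3G52860, MS1, VAMP712, AG, VGD1 and CCZ1A were named after their values were seen. Each result was recomputed with other pseudocounts (0.1 and 5), without the filter or with one at 5 FPKM, after median-of-ratios or quantile scaling, without the trend, with same-numbered libraries as a block, and omitting each library in turn. A constant FPKM total was added after seeing the data.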

Additional observations from a re-analysis of the deposited data

How the results depend on the processing

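VSR1, VSR6 and RMR2 kept their direction and call under every alternative that tested them. The number of receptors called lower was 1, but 4 after median-of-ratios scaling and 2 after quantile normalization, and the number called higher was 2 under both and 2 to 3 when 1 library was left out. These scalings also turned VSR3 (-0.167 and -0.113), VSR4 (-0.183 and -0.0171), VSR7 (-0.0604 and -0.121) and RMR1 (-0.157 and -0.061). The cause was not tested. Leaving out 1 library gave -0.00362 to 0.0287 for VSR4, -0.0133 to 0.0636 for RMR1 and 0.0913 to 0.151 for VSR7. List medians turned to -0.0182 (Rab) and -0.156 (lytic cargo) with median-of-ratios scaling. Quantile normalization moved the lytic cargo median the other way, to 0.365. The SNARE median turned to 0.0231 with a constant FPKM total, a setting chosen after seeing the data, and ranged from -0.0602 to 0.00451 with 1 library left out. AT1G22860 turned to -0.0998 with quantile normalization. Of 28 named pathway genes, 25 kept direction and call in every alternative. The count of all genes called was 14550, and 13545 to 14292 with 1 library left out. Same-numbered libraries of the sets did not deviate together (correlations -0.016, -0.016 and 0.014), and not every library correlated best with its own number. With the replicate block 14477 genes were called, 2 receptors in place of 3 were higher, and VSR7 was not called (limma, adjusted p = 0.0656), as also without a filter on low values (limma, adjusted p = 0.0649). Depth limits VSR2 and VSR5 to a few counts per library.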
